A study of Mus musculus with 2 samples.

Results

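Marco encodes a scavenger receptor of macrophages, and its locus was described here in single nuclei of mouse liver. The locus was taken as the gene with 50 kb on each side, cut into 132 tiles of 1 kb, and Marco is 1 of 21887 protein-coding genes counted. It was chosen because its accessibility differed between the libraries, so that difference is a description and was not tested. The assay was single-nucleus ATAC-seq in droplets: a transposase cuts accessible DNA, and each piece cut out is sequenced as a fragment.

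The nuclei came from non-parenchymal liver cells enriched with beads against F4/80, a macrophage surface protein. There was 1 library from an Spta sph/sph mouse and 1 from its littermate control, Spta wt/wt. Both were untreated males of 8 to 10 weeks. The barcodes end in suffix 2 or 1, and no label used here pairs a suffix with a genotype, so the groups are called library 2 and library 1 and no genotype is compared. With 1 library per group there is no replicate check. Ranges in parentheses are 95% intervals and hold counting error alone.

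Marco is a trimeric class A scavenger receptor that binds bacteria, particles and modified lipoproteins. In mouse liver it is known as a receptor of Kupffer cells, the resident macrophages, which also take up aged red cells and break down their heme. Open chromatin at a promoter or at a distal element marks DNA that factors can reach, and it is no measure of the transcript.

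Library 2 held 21656110 fragments and library 1 held 11401694, of which 56.2% and 83.2% lay in called cells. The authors called 575 cells in library 2 and 637 in library 1, with medians of 13186 and 13220 fragments per cell, and the libraries shared 0 cell barcodes. A median of 53.7% of a cell's fragments lay in peaks in library 2, against 72.1% in library 1. After filters 562 and 609 cells remained. Clusters named from marker genes gave a Kupffer-like class with 187 cells in library 2 and 324 in library 1, beside 118 and 121 endothelial-like cells, 24 and 67 stellate or fibroblast-like cells, and 1 and 25 hepatocyte-like cells. The other 232 and 72 cells stayed unnamed.

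The Kupffer-like label held against its markers: 9 of 9 Kupffer markers, such as Clec4f, Vsig4 and Timd4, were higher in Kupffer-like cells than in all other cells of the same library, in each library. Their summed level was 560 CPM (fragments at a gene per 1000000 fragments of the class) in Kupffer-like cells and 213 CPM in other cells of library 2, and 862 CPM and 181 CPM in library 1. These markers named the clusters, so this is a check and not a result. Among the marker lists of other cell types, that of neutrophils alone also summed higher in Kupffer-like cells. It had 101 CPM against 57.0 CPM in other cells of library 2, and 134 against 57.2 CPM in library 1, with 3 and 5 of 8 markers higher. In library 1, 6 of 8 B cell markers were higher as well, though their sum was lower. Different clusters held the class in the libraries. In library 2, 174 of the 187 cells were in cluster 0 and 13 in cluster 3. In library 1, 0 cells were in cluster 0, while 123 were in cluster 3, 115 in cluster 5 and 86 in cluster 7. The leading genes of cluster 0 by fold, Akr1c20, Cyp2b23 and Dsg3, were no markers of any class. Pile-ups were 20 kb bins in which 1 cell had at least 10 fragments and at least 10 times the expected number. With these masked, Marco itself led cluster 0, and its locus had been left out of the clustering. Cluster 0 held cells of library 2 alone, and Marco was chosen because it differed between the libraries. Nothing is therefore read from this lead.

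Marco lies on the minus strand of chromosome 1, at chr1:120474538-120505024 (GRCm38), and spans 30487 bases. Its annotated start site is at 120505024. The RefSeq window of 250 bases before and 50 bases after that site, chr1:120504975-120505274 on the minus strand, is shown because the open site at the 5′ end of the gene lay beside it and not in it. It reads 5′ to 3′ with the 50 bases from the start site on in capitals (RefSeq, GRCm38.p6):

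Marco promoter: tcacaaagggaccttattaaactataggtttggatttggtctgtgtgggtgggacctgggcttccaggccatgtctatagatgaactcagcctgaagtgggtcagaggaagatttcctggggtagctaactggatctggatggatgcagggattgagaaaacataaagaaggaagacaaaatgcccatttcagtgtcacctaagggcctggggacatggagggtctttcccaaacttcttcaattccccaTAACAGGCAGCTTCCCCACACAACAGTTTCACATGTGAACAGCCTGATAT

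In Kupffer-like cells these 300 bases took 11 transposase cuts in library 2 and 13 in library 1. The next 950 bases inside the gene took 86 cuts in library 2 and 128 in library 1. The 100-base bin with the most cuts in the kilobase at the 5′ end was centred 173 bases inside the gene. The window had a GC content of 47.3%. It held no match on either strand to 6 motifs: AP-1 (TGANTCA), the antioxidant response element (TGACNNNGC), the PU.1 core (AGGAAGT), a MAF site (TGCTGAC), the E-box of the MiT/TFE factors (CACGTG) and C/EBP (TTGCNNAA). Among 32851 mouse promoters of the same length, 7.81%, 12.4%, 9.35%, 4.67%, 7.15% and 10.8% held these motifs in that order. No match says only that these letters are not in this window.

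**Figure D1:**
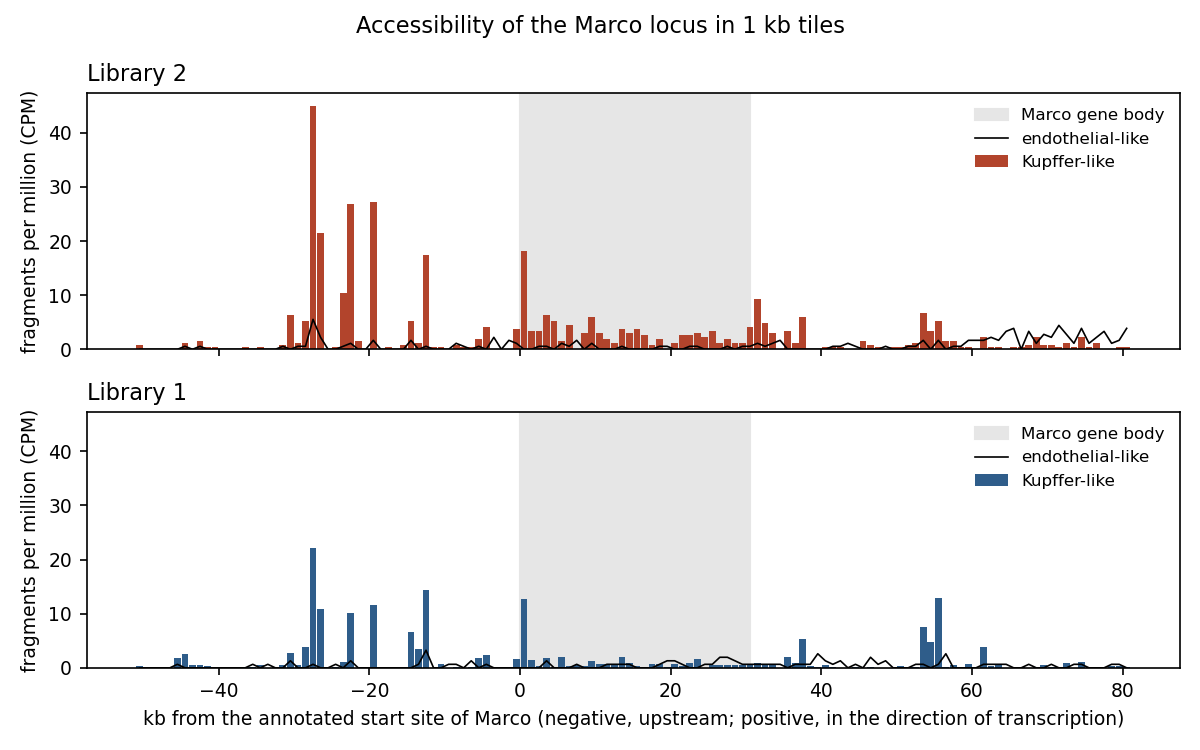
CPM in 1 kb tiles of the Marco locus by distance from the start site, for library 2 (top) and library 1 (bottom), with bars for Kupffer-like cells, a line for endothelial-like cells and the gene body in grey. In both libraries the highest Kupffer-like tile lies 27.5 kb upstream, at 45.0 CPM in library 2 and 22.2 CPM in library 1.

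Several tiles of the locus stood out in Kupffer-like cells. The gene interior held 21.7% of the locus fragments in library 2 and 10.9% in library 1. The other tiles outside the gene, none of them within 2 kb of it, held 24.6% and 29.6%. Of 132 tiles, 9 reached 50 fragments in Kupffer-like cells over both libraries: 6 upstream of the gene, the kilobase at its 5′ end, and 2 past its 3′ end. The highest tile, chr1:120532001-120533000, lay 27.5 kb upstream and took 122 fragments in library 2 and 124 in library 1. It was open in 39.0% of the Kupffer-like cells in library 2 and 27.2% in library 1, more cells than had a fragment in the kilobase at the 5′ end of the gene (19.8% and 19.1%). Tiles centred 26.5, 22.5 and 19.5 kb upstream took 58, 73 and 74 fragments in library 2, and 61, 57 and 65 in library 1. Tiles 14.5 and 12.5 kb upstream took 14 and 47 fragments in library 2, and 37 and 80 in library 1.

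Endothelial-like cells took 0 to 10 fragments in each of these 9 tiles in library 2 and 0 to 5 in library 1. Their highest count in library 2, 10 fragments or 5.53 CPM, was in the tile 27.5 kb upstream, where library 1 had 1 fragment or 0.651 CPM. In the kilobase at the 5′ end of the gene they had 0 fragments in each library. The 9 tiles were picked on Kupffer-like counts alone, so nothing is read from the lower endothelial-like counts in them. In library 2 some tiles far past the 3′ end had a higher CPM in endothelial-like than in Kupffer-like cells. No protein-coding gene other than Marco lies in the locus, and the only other annotated gene there is the long non-coding RNA gene Gm46154.

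The Marco level was then summed per cell class over the gene body with 2 kb on each side. Kupffer-like cells had the highest level in each library: 100 CPM in library 2 (88.8 to 113, 272 fragments) and 32.7 CPM in library 1 (28.1 to 37.8, 183 fragments). Endothelial-like cells had 11.6 CPM in library 2 (7.19 to 17.7, 21 fragments) and 14.3 CPM in library 1 (8.97 to 21.7, 22 fragments). Stellate or fibroblast-like cells had 10.6 CPM in library 2 and 6.27 CPM in library 1, from 6 and 5 fragments. Hepatocyte-like cells had 1 fragment in library 1, or 2.25 CPM. The single hepatocyte-like cell of library 2 had 0, with an interval that reached 212 CPM.

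Unnamed cells came second in library 2, at 46.3 CPM (41.4 to 51.6), against 7.51 CPM in library 1 (3.24 to 14.8). Nearly all of it in library 2 came from cluster 1, with 317 of 325 fragments in 148 cells, 32.4% of which were open. A single cell of cluster 1 held 55 of the 317, and the level was 51.7 CPM without it, against 61.8 CPM with it. A median of 33.7% of the fragments of these cells lay in peaks, against 59.5% in Kupffer-like cells of library 2, and the mean log2 enrichment of the Kupffer markers in cluster 1 was −0.47, against 0.56 in cluster 0. The part of the low share in peaks in this level was not tested.

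In library 2 the order from Kupffer-like to unnamed to endothelial-like cells had intervals that did not overlap. Endothelial-like and stellate or fibroblast-like cells did not differ beyond their intervals in either library. In library 1 the intervals of unnamed, endothelial-like, stellate or fibroblast-like and hepatocyte-like cells all overlapped, and Kupffer-like cells stood above them.

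**Figure D2:**
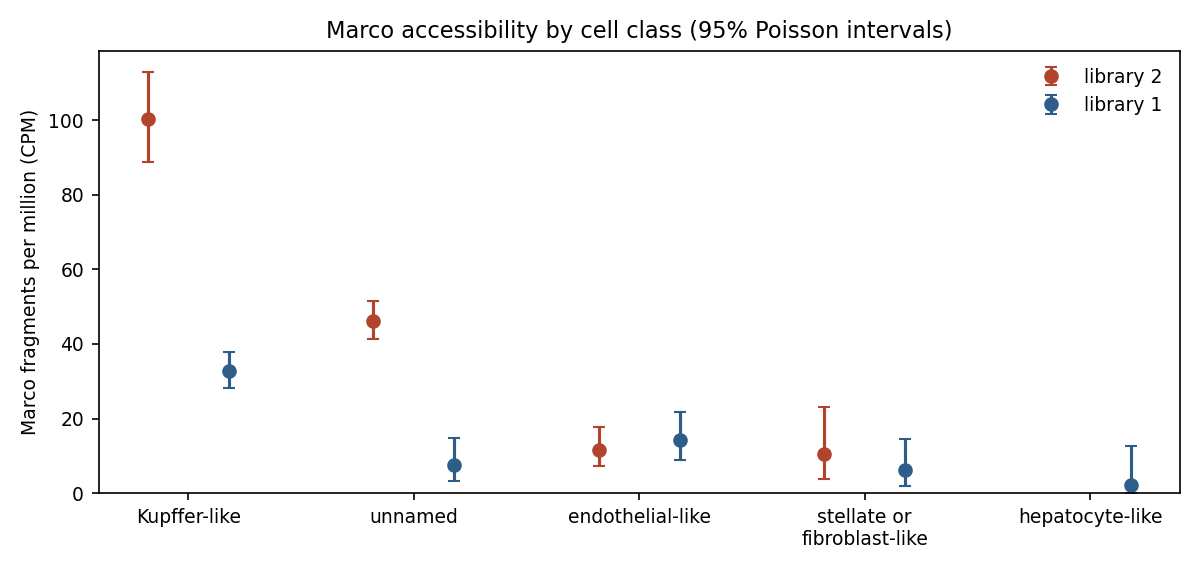
Marco level in CPM, with exact 95% Poisson intervals, for each class of at least 20 cells in library 2 (left of each pair) and library 1. Kupffer-like cells stand highest in both, at 100 CPM in library 2 and 32.7 CPM in library 1.

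Kupffer-like over endothelial-like cells gave a log2 ratio, relative to the median gene, of 3.09 in library 2 (2.48 to 3.84), rank 70 of 13540 genes, where 10.5% of genes reached 1. In library 1 the ratio was 1.17 (0.56 to 1.91), rank 1499 of 15015, where 12.4% reached 1. The ratio of library 1 turned on 1 cell. In cluster 9, an endothelial-like cluster, 1 cell held 15 of 18 fragments, and the cluster had 7.32 CPM without it, against 43.2 CPM with it. Without cells of 10 or more Marco fragments the ratio was 2.99 in library 2 and 2.75 in library 1.

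Within the Kupffer-like class, cluster 0 of library 2 had 98.6 CPM (86.9 to 111). In library 1, cluster 3 had 44.7 CPM (32.7 to 59.7), cluster 7 had 31.2 CPM (24.8 to 38.8) and cluster 5 had 28.4 CPM (21.5 to 36.9), all below cluster 0 and with intervals that overlapped each other. In cluster 3, the only Kupffer-like cluster with cells of both libraries, library 2 had 12 fragments in 13 cells, 7 of them in 1 cell, for 164 CPM (84.6 to 286).

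Marco was open, with at least 1 fragment, in 50.3% of Kupffer-like cells of library 2 (94 of 187, 42.9 to 57.6%) and 34.9% of library 1 (113 of 324, 29.7 to 40.3%), at median depths of 12585 and 16209.5 fragments. The same share in endothelial-like cells was 11.9% in library 2 (14 of 118) and 6.61% in library 1 (8 of 121), at median depths of 12334 and 10619. With each cell thinned to 5000 fragments, 32.9% of 167 Kupffer-like cells of library 2 were open (25.9 to 40.6%) and 17.7% of 294 of library 1 (13.5 to 22.5%). The thinned endothelial-like shares were 4.59% and 3.09%. Both Kupffer-like shares stayed above the endothelial-like ones at equal depth.

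The libraries also differed in how many fragments an open cell held. At least 3 fragments were found in 41 of 187 Kupffer-like cells in library 2 and 14 of 324 in library 1, or 21.9% and 4.32%. Exactly 1 fragment was found in 33 cells of library 2 and 75 of library 1, and 2 fragments in 20 and 24. The highest cell held 14 fragments in library 2 and 9 in library 1. Among cells of 20000 fragments or more, 81.8% of library 2 were open (36 of 44) and 48.1% of library 1 (51 of 106). Among cells of 5000 to 10000 fragments, 37.2% and 29.3% were open, with intervals that overlapped. The intervals also overlapped below 5000 fragments and from 10000 to 20000. The Marco level at 5000 to 10000 fragments was close, at 71.6 CPM in library 2 and 66.1 CPM in library 1. It was 104 and 19.9 CPM below 5000 fragments, and 90.3 and 30.5 CPM from 10000 to 20000. At 20000 or more it was 118 and 29.6 CPM. The cause of this unevenness with depth was not tested.

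**Figure D3:**
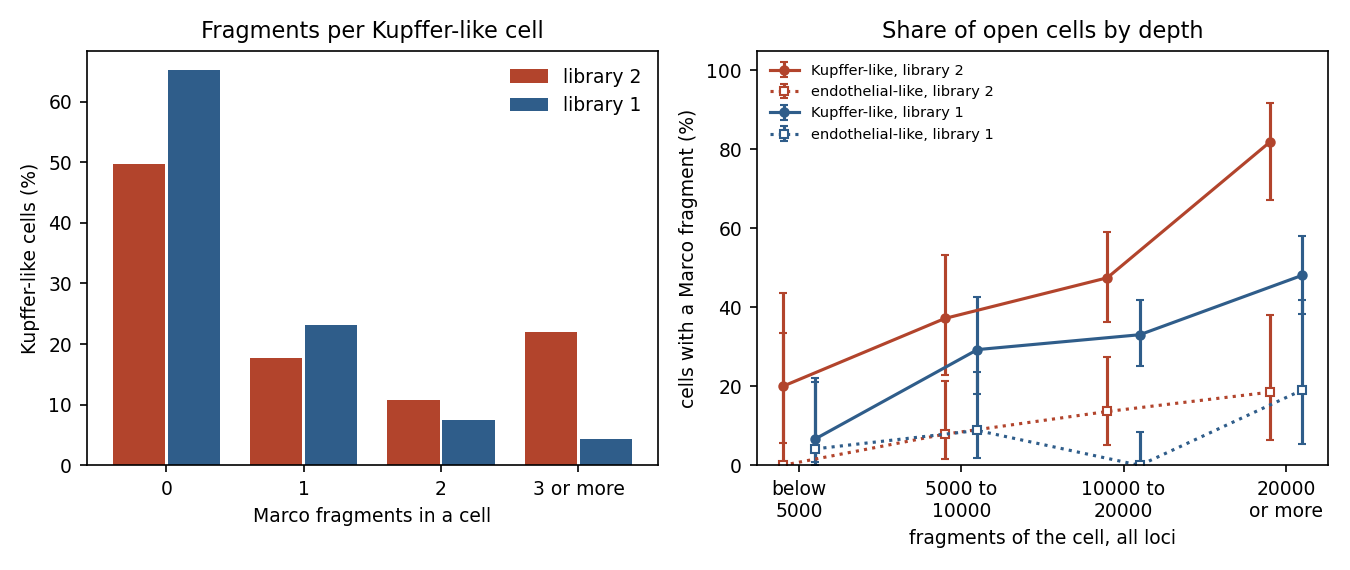
Left, percent of Kupffer-like cells by their number of Marco fragments in library 2 (left bars) and library 1; right, percent of cells with a Marco fragment by depth bin with exact 95% binomial intervals, for Kupffer-like and endothelial-like cells of each library. At 20000 fragments or more, 81.8% of Kupffer-like cells in library 2 and 48.1% in library 1 were open.

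Library 2 over library 1 in Kupffer-like cells gave a log2 ratio for Marco of 1.82 (1.55 to 2.10) relative to the median gene, rank 359 of 15285 genes, where 6.93% reached 1. With pile-ups masked it was 1.88, rank 107 of 15140, where 3.98% reached 1. The pile-ups were mostly of library 2, with a median of 6.23% of a Kupffer-like cell's fragments in library 2 and 0% in library 1.

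The excess of library 2 was uneven along the locus. Among the described parts of the locus it was highest in the gene interior, the gene without the kilobase at each end. The interior took 182 fragments in library 2 and 102 in library 1, a log2 ratio of 2.08 (1.73 to 2.45), rank 285 of 9533 gene interiors of at least 10 kb, 11.9% of which reached 1. Of 29 interior tiles, 26 had a higher CPM in library 2. Each of these tiles was below the minimum of fragments for a described tile, and no share of like tiles genome-wide was taken. The locus was chosen on this contrast, so nothing is read from that count. The interior held 21.7% of all Kupffer-like fragments of the locus in library 2 (18.9 to 24.6%) and 10.9% in library 1 (8.93 to 13.02%).

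The kilobase at the 5′ end differed less, with 49 and 71 fragments and a log2 ratio of 0.72 (0.16 to 1.26). Its interval did not overlap that of the interior. The 6 upstream tiles together had a ratio of 1.12 (0.92 to 1.33) from summed tile counts of 388 and 424. In these sums a fragment over neighbouring tiles counts in each. Counted once each, the fragments numbered 352 and 394. These tiles held the same share of the locus, 41.9%, in each library. They were not alike. The 4 far tiles, centred 27.5, 26.5, 22.5 and 19.5 kb upstream, had ratios of 1.23, 1.18, 1.61 and 1.44. The 2 near tiles had ratios of −0.12 at 14.5 kb (−1.15 to 0.77) and 0.49 at 12.5 kb (−0.07 to 1.02). Library 2 was also higher farther out in the flanks. The 88 other tiles outside the gene, none of them within 2 kb of it, together had a ratio of 0.85 (0.59 to 1.10). That interval overlapped those of the 6 upstream tiles together and of the kilobase at the 5′ end.

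Past the 3′ end 1 tile had the opposite direction. The tile chr1:120449001-120450000, 55.5 kb from the start site, took 14 fragments in library 2 and 72 in library 1, a log2 ratio of −1.07 (−2.05 to −0.27). The tile 2 kb nearer, with 18 and 42 fragments, had a ratio of 0.05 (−0.85 to 0.86). These 2 tiles together held 3.81% of the locus fragments in library 2 and 12.1% in library 1. Single tiles below the minimum of 50 fragments reached higher ratios than the interior. The tile nearest to the 3′ end on its outer side, chr1:120473001-120474000, took 25 fragments in library 2 and 5 in library 1, a log2 ratio of 3.46 (2.16 to 5.32), and the next one outward took 13 and 3, a ratio of 3.20 (1.504 to 5.82). The tile 23.5 kb upstream took 28 and 6, a ratio of 3.38 (2.17 to 5.04). Of the 9 tiles, 4 reached 1 and 1 reached −1, beside 2.45% and 11.3% of 34412 tiles genome-wide. The locus was chosen on this contrast, so nothing is read from these shares.

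**Figure D4:**
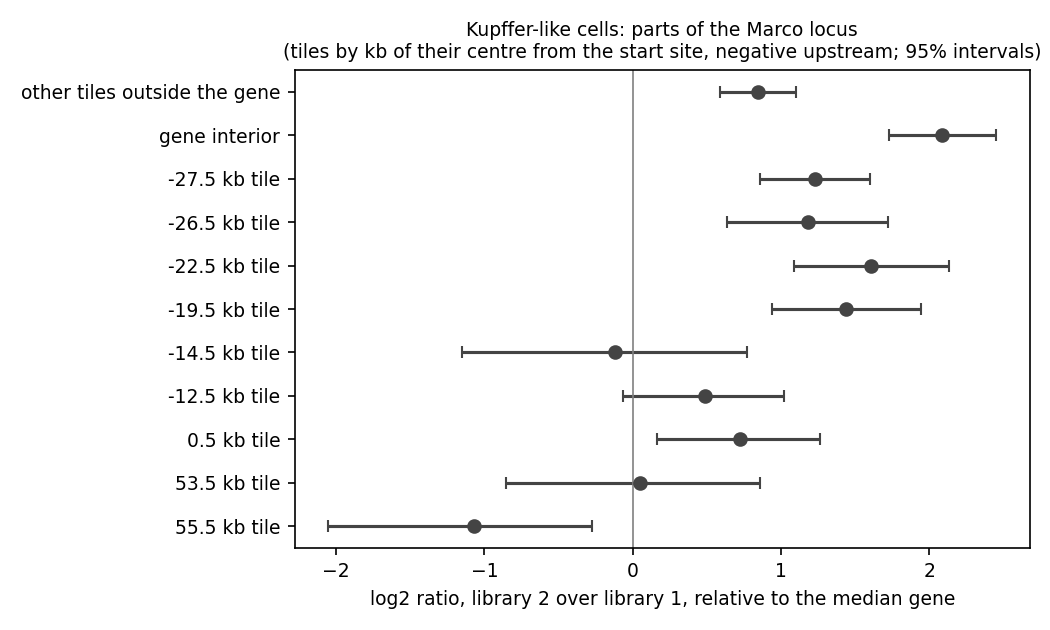
Log2 ratio of library 2 over library 1 in Kupffer-like cells, relative to the median gene, with exact 95% intervals. Shown are the 9 tiles with at least 50 fragments, the gene interior and the other tiles more than 2 kb outside the gene. The interior stands at 2.08, the 4 far upstream tiles between 1.18 and 1.61, and the tile at 55.5 kb at −1.07.

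Fragments under 150 bases made up 58.2% of those in the interior in library 2 and 63.7% in library 1, beside 62.7% and 59.9% of all Kupffer-like fragments. In the upstream tiles they made up 69.0% and 75.6%. Cells with a fragment in an upstream tile were paired with cells of like depth without one, and Marco was open in 51.0% against 38.8% of them in 49 pairs of library 2 and 38.6% against 24.6% in 114 pairs of library 1. The intervals overlapped in each library. For the tiles past the 3′ end the shares were 66.7% against 59.3% in 27 pairs of library 2, and 46.9% against 46.9% in 64 pairs of library 1.

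None of the 16 other scavenger receptors listed reached the Marco difference. Marco was chosen for that difference, so this follows from the choice and nothing is read from it. Of 16 listed receptors with at least 50 fragments, 0 reached a log2 ratio of 1 in library 2 over library 1, where 6.93% of genes did, and 3 reached −1, where 3.68% did. The 3 were Cd163, the hemoglobin-haptoglobin receptor, at −1.40, Stab1, a receptor of macrophages and sinusoidal endothelium, at −1.26, and Scarf1 at −1.01. Msr1, the class A receptor nearest to Marco in kind, had 85.2 CPM in library 2 and 138 CPM in library 1, a ratio of −0.48. The list had a median of −0.20, beside 0 for all genes by construction. In the heme and iron list 1 of 14 genes reached 1, beside 6.93% of all genes. It was Hmox1, the heme oxygenase that opens the heme ring, with 126 CPM in library 2 and 61.3 CPM in library 1, a ratio of 1.24. The list's median was 0.38.

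Kupffer-like cells with a Marco fragment were set against cells without one at matched depth, 57 pairs in library 2 and 109 in library 1. Hmox1 was higher in cells with a Marco fragment in each library. In library 2 it took 119 fragments in cells with Marco and 65 in cells without, a log2 ratio of 0.78 (0.34 to 1.24). In library 1 it took 172 and 98 fragments, a ratio of 0.81 (0.45 to 1.18). Hmox1 was open in 73.7% of cells with Marco and 52.6% of cells without in library 2, and in 64.2% and 51.4% in library 1, with intervals that overlapped.

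The single highest cell held 14 of the 119 Hmox1 fragments and 5 of the 65 in library 2, and 13 of the 172 and 14 of the 98 in library 1. Over all Kupffer-like cells, Hmox1 was lowest in cells with 0 Marco fragments. In library 2 it had 83.2 CPM in cells with 0 Marco fragments, then 132, 122 and 175 CPM in cells with 1, 2 and 3 or more. In library 1 the levels were 50.2, 73.1, 76.1 and 91.9 CPM. Cells with more Marco fragments were deeper, with medians of 10095 and 20016 fragments in library 2 for 0 and for 3 or more, and 13945 and 26929.5 in library 1.

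The Hmox1 ratio had intervals that held 0 in each library at low depth, and in library 1 with at least 2 Marco fragments required. A difference cannot be told from none there. With all cells thinned to 5000 fragments before pairing the ratio was 0.60 in library 2 (−0.13 to 1.38, 41 and 26 fragments). In library 1 it was 0.00 (−1.03 to 1.03, 18 and 18 fragments). With at least 2 Marco fragments required it was 0.69 in library 2 and 0.32 in library 1 (−0.23 to 0.89). With pairs made within clusters it was 0.64 in library 2 and 0.56 in library 1. For the upstream tiles, cells with a fragment there over cells without gave Hmox1 ratios of 0.14 in library 2 (−0.32 to 0.61) and −0.01 in library 1 (−0.40 to 0.38).

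**Figure D5:**
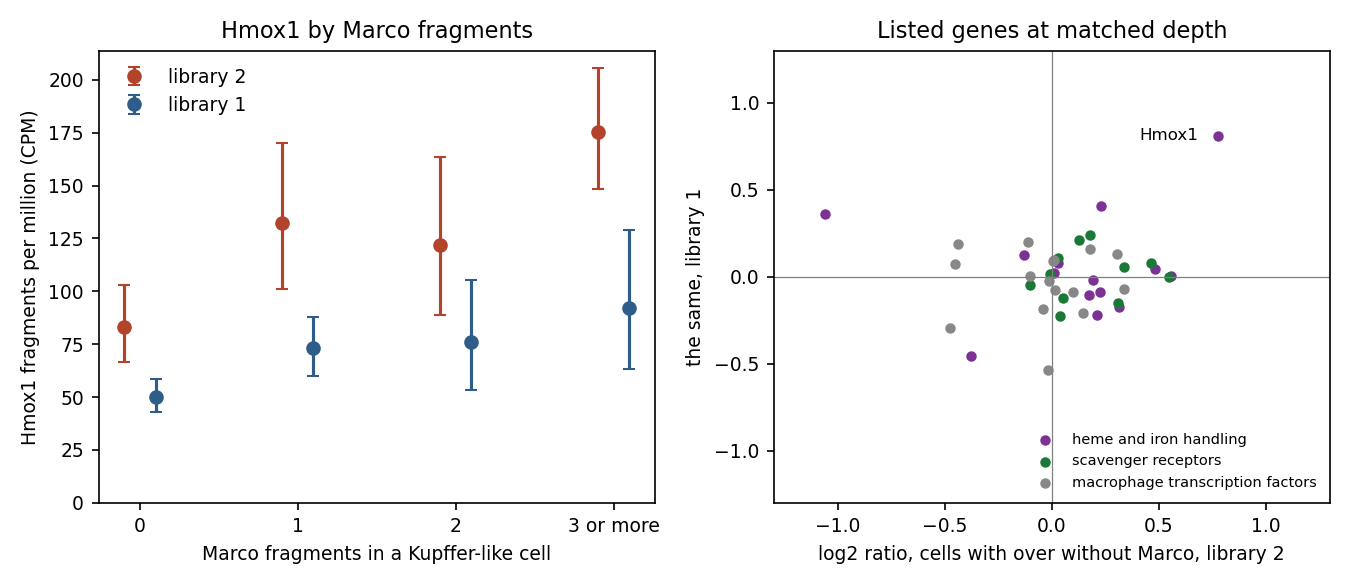
Left, Hmox1 level in Kupffer-like cells by their number of Marco fragments, in CPM with exact 95% Poisson intervals, for library 2 (left points) and library 1; right, log2 ratios of cells with over cells without a Marco fragment at matched depth in library 2 (x) and library 1 (y), for the tested genes of 3 lists. Hmox1 stands at 0.78 and 0.81.

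Of 7854 genes tested, 27 (0.344%) were past 0.5 in both libraries and 39 (0.497%) were past −0.5. Hmox1 was the only member of the 6 gene lists among them: 1 of 14 heme and iron genes, and 0 of 11 scavenger receptors, 0 of 5 MHC class II and co-stimulation genes, 0 of 6 inflammatory genes, 0 of 3 anti-inflammatory genes and 0 of 16 macrophage transcription factors that had enough fragments. Slc40a1, the iron exporter, had ratios of 0.48 in library 2 (−0.01 to 1.00) and 0.05 in library 1 (−0.20 to 0.29). The median of the heme and iron list was 0.20 in library 2 and 0.01 in library 1, and that of the scavenger receptors 0.13 and 0.01. The median of all genes is 0 by construction. Of the marker lists of 13 cell types, 1 gene was past −0.5, Pax5, a B cell factor, among 2 B cell markers tested, and with pile-ups masked it stood at 0.17 in library 2 and −0.58 in library 1. None of 9 Kupffer markers passed, and their median was 0.22 in library 2 and 0.06 in library 1.

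The 10 genes with the highest ratios in both libraries were Fgfr2, Cdh2, Exoc7, Hmox1, Gopc, Laptm4b, Npr3, Arhgef10l, Ano4 and Ncoa5. Single cells carried several of these. Of the fragments of cells with Marco in library 2, 1 cell held 122 of 141 for Fgfr2, 146 of 164 for Cdh2, 60 of 61 for Npr3 and 119 of 142 for Ano4. With pile-ups masked 4 of the 10 kept at least 50 fragments in each library, and 2 of these were past 0.5 in both. They were Hmox1 (0.80 in library 2 and 0.70 in library 1) and Gopc, a Golgi protein that binds PDZ ligands (0.95 and 0.59). Fgfr2 was left with 23 fragments in library 2 and Laptm4b with 49, below the minimum.

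The 10 lowest genes were Tmem132c, Shisa6, Tc2n, B3galt1, Agbl1, Ephb1, Nell1, Cdh6, Limch1 and Cobll1. They were long, with a median of 320 kb against 38.4 kb for all genes tested, and 9 of the 10 exceeded 100 kb. With pile-ups masked 8 of the 10 kept at least 50 fragments in each library, and 1 of these was past −0.5 in both, Cobll1 (−0.64 in library 2 and −0.84 in library 1). Shisa6 was left with 33 fragments in library 2.

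Other measures moved with the Marco split in library 2. Cells with Marco had a median of 65.1% of fragments in peaks against 58.8% in cells without, and 4.32% against 6.95% in pile-ups. In library 1 the medians in peaks were 74.0% and 73.9%. The 12 endothelial markers summed to 364 CPM in cells with Marco and 646 CPM in cells without in library 2, and 482 and 485 CPM in library 1. In library 2 single cells carried much of the sum in cells without Marco, where 1 cell held 114 of 131 fragments of Tek, 1 held 47 of 63 of Egfl7 and 1 held 26 of 29 of Flt4. The 10 hepatocyte markers summed to 33.3 CPM in cells with Marco and 188 CPM in cells without in library 2, and to 55.4 and 63.7 CPM in library 1. Of the 146 hepatocyte marker fragments in cells without Marco of library 2, 119 were of Apob, and 1 cell held 114 of these. In library 2, 4 of the 10 hepatocyte markers were at 0 in cells with Marco and 5 in cells without. The 10 stellate or fibroblast markers, 2 of them with enough fragments to be tested, went the other way. They summed to 258 CPM in cells with Marco and 148 CPM in cells without in library 2, and to 179 and 157 CPM in library 1. The part of these in the Hmox1 ratio was not tested. With pairs matched on fragments in peaks the Hmox1 ratio was 0.77 in library 2 and 0.60 in library 1, and with cells of at least 50% in peaks alone it was 0.77 and 0.81.

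Across the 9 groups of a class and a library with at least 20 cells, the genes whose level was most like that of Marco, among 16500 genes, were Heatr6 (Pearson r 0.93), Muc6 (0.92), Tpcn2 (0.91), Guf1 (0.91) and Hmox1 (0.90). The groups share libraries and depth, so r is a description. Tpcn2, a calcium channel of lysosomes and endosomes, had 189 CPM in Kupffer-like cells of library 2 and 113 CPM in those of library 1, against 62.5 and 56.0 CPM in endothelial-like cells.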

How the data were processed

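Nuclei of 1 Spta sph/sph and 1 wild-type mouse were sequenced. Cell Ranger ATAC 1.2.0, R 3.6.1, Signac 0.2.4 and build GRCm38.p5 are named in the submitters' processing notes. The authors deposited counts, not normalized: read pairs per unique fragment, and per-barcode totals with their cell calls. Each fragment was counted once here, except in ratios of summed tiles, where it counted once in each tile it overlapped.

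Kept cells had 1000 or more fragments in peaks, 15% or more of fragments in peaks and a blacklisted share of 5% or less. Fragments in 343824 bins of 5 kb, without the Marco locus, went through TF-IDF and a truncated SVD of 30 components (scikit-learn 1.9.0, the first left out) and were clustered with Leiden at resolution 0.5 (leidenalg 0.10.2, 20 neighbours, 11 clusters). A cluster was named where a marker list scored 0.25, led by 0.2 and had 3 markers in 10% of cells. Doublets were kept. Scrublet (scanpy 1.11.5) marked 10 cells of library 2 and 16 of library 1, and an overlap rule 85 and 68.

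Gene positions come from the GRCm38.p6 gene table, a patch release with the same chromosome coordinates. CPM is scaled to 1000000 fragments of a class and has Poisson intervals (exact). Shares have Clopper-Pearson intervals, and log2 ratios (0.5 added to each count, genes of at least 50 fragments, relative to the median gene) exact conditional binomial intervals. Pairs matched log10 depth within 0.05. The named genes are the 10 highest and 10 lowest by the less extreme ratio of both libraries, list members past 0.5 in both, and the 5 genes most like Marco. Counting and ratios were tested on simulated data. The locus, lists and members were chosen with earlier results of these data known. In all 19 alternatives were tried, 2 of them (without cells of 10 or more Marco fragments, and pairs within clusters) chosen after seeing the data. With 1 library per group no test and no p-value is given.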

Additional observations from a re-analysis of the deposited data

Results flagged for a closer look

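In cells with over cells without a Marco fragment, 3 list medians (log2) had opposite signs in the libraries, and the differences were not tested. MHC class II and co-stimulation genes had a median of −0.22 in library 2 and 0.020 in library 1, inflammatory genes 0.154 and −0.0085, and anti-inflammatory genes −0.014 and 0.025. Barcodes not called as cells, which enter no comparison, held Marco at 23.2 CPM in library 2 (220 fragments) and 21.9 CPM in library 1 (42 fragments), above the limit that a count of 0 allows.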

How the results depend on the processing

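Of 176 values recomputed under 19 alternatives, 138 stayed within their interval or within 1.5 times the count, 38 moved and 0 changed sign. Some of the 138 could not move, so their number is no measure of robustness. Scaling by fragments in peaks or near start sites cancels in ratios relative to the median gene. A lower minimum of fragments per tile does not enter the ratios of the parts of the locus. Leaving out cells with many Marco fragments removed no Kupffer-like cell of library 1. Levels, shares and counts cannot change sign. No paired analysis was possible because each group has 1 library. The cause of these moves was not tested, except where fewer fragments or another scale or window sets the value. The Kupffer-like Marco level was 167.6 CPM in library 2 and 45.32 CPM in library 1 per fragment in peaks, 287.6 and 87.36 CPM per fragment near start sites, 309.8 and 168.0 CPM with 50 kb flanks, 199.9 and 65.24 CPM as insertions, and 86.31 CPM in library 2 without flanks.

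With 50 kb flanks the open share was 81.82% in library 2 and 79.63% in library 1, the ratio of library 2 over library 1 was 1.035, and that of Kupffer-like over endothelial-like cells in library 2 was 1.807. Thinned to 5000 fragments, the shares were 32.93% and 17.69%, the ratio between libraries 1.37, and that over endothelial-like cells in library 1 0.531. Without cells of 10 or more Marco fragments, chosen after seeing the data, the last was 2.749.

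Tiles past the minimum numbered 17 as insertions, 1 thinned and 22 at a minimum of 20 fragments, against 9. Of these 8, 1 and 11 were at least 2-fold higher in library 2, against 4, and 0 thinned and 2 at the lower minimum were at least 2-fold lower, against 1. Genes higher and lower in cells with Marco in both libraries, 27 and 39, numbered 8 and 15 with classes from marker fragments, 14 and 21 with pile-ups masked, 14 and 17 thinned, and 6 and 13 at a minimum of 100 fragments. With at least 2 Marco fragments 53 were higher. The Hmox1 ratio of library 1, 0.81 in the main setting, moved to 0 thinned and to 0.32 with at least 2 Marco fragments. In the classing by marker fragments, 307 cells lay within 0.2 of the boundary. At 5000 fragments per cell few Marco fragments remain, so a closed cell is not shown to lack accessibility.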
